A study of Mus musculus with 8 samples.

Results

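The genes examined were 10 genes that define what a sorted T cell is: Ptprc, which encodes CD45, the coreceptor genes Cd4, Cd8a and Cd8b1, the CD3 genes Cd3d, Cd3e and Cd3g, the adaptor gene Trat1, and the surface glycoprotein genes Thy1 and Cd44. They were listed by name, and each was read from its brightest transcript cluster with a single gene symbol, where a transcript cluster is the set of array probes that measures 1 gene. Each of the 10 had 1 such cluster, out of 22180 genes with a named cluster, and all 10 were among the 13508 genes bright enough to test. The samples were splenic T cells gated as CD4+CD25-, sorted by their surface level of CD45RB and stimulated on plates that carried antibodies to CD3 and CD28. There were 4 groups with 2 arrays each, namely CCR2-/- CD45RBlow, CCR2-/- CD45RBhigh, wild-type CD45RBlow and wild-type CD45RBhigh cells, all from C57BL/6 mice aged 6 to 8 weeks. CCR2 is the receptor for the chemokine CCL2. How the CCR2-/- allele was made, how many mice were used and whether cells of several mice were pooled is not given in the sources used here. For the length of stimulation the sample protocols name 48 h, the design text 2 h, and the labels do not settle which holds. The labels do not say which mice an array stems from. Xist, which is transcribed from the inactive X chromosome of female cells, was 4.45 to 5.02 on the 4 replicate 1 arrays and 11.74 to 12.07 on the 4 replicate 2 arrays, so the 2 arrays of a group did not hold cells of the same mice. Sex and replicate number cannot be told apart here. No unstimulated cells and no CD8+ T cells were measured.

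CD45 is a receptor tyrosine phosphatase of all white blood cells that sets the activity of the Src family kinases used by the T cell receptor. Its extracellular part is made in several forms by alternative splicing, and the CD45RB antibody sees only forms that carry the B segment, which naive T cells keep and antigen-experienced T cells largely splice out. A sort on CD45RB is therefore a sort on the form of a protein, while the values here give 1 level per gene and do not separate its forms. CD3 chains carry the signal of the T cell receptor, CD4 and CD8 are the coreceptors of helper and cytotoxic T cells, and Trat1 encodes TRIM, a small transmembrane adaptor that associates with the receptor complex.

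The gene of the sorted protein and the gene of the gated coreceptor had nearly the same transcript level in all groups, and so did the CD3 genes. Trat1 fell in CD45RBlow cells, with 3.77 times more transcript in CD45RBhigh cells (log2 difference -1.92, standard error 0.25, 95% confidence interval -2.51 to -1.32, limma adjusted p = 0.0150). Cd8b1 (log2 difference -0.92) and Thy1 (-0.64) were lower on every CD45RBlow array than on any CD45RBhigh array but did not pass the test. Of the 10 genes 1 fell and 0 rose between the subsets, against 1.93% of all tested genes that fell, 1.1% that rose and 3.03% called in either direction. With the replicate number as a block 2 of the 10 were called and fell, against 5.61% of all tested genes called in either direction. These were Trat1 and Cd8b1 (limma adjusted p = 0.0467 with the block for Cd8b1). No identity gene was called between CCR2-/- and wild-type cells. The plot of levels by array shows all values.

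**Figure D1:**
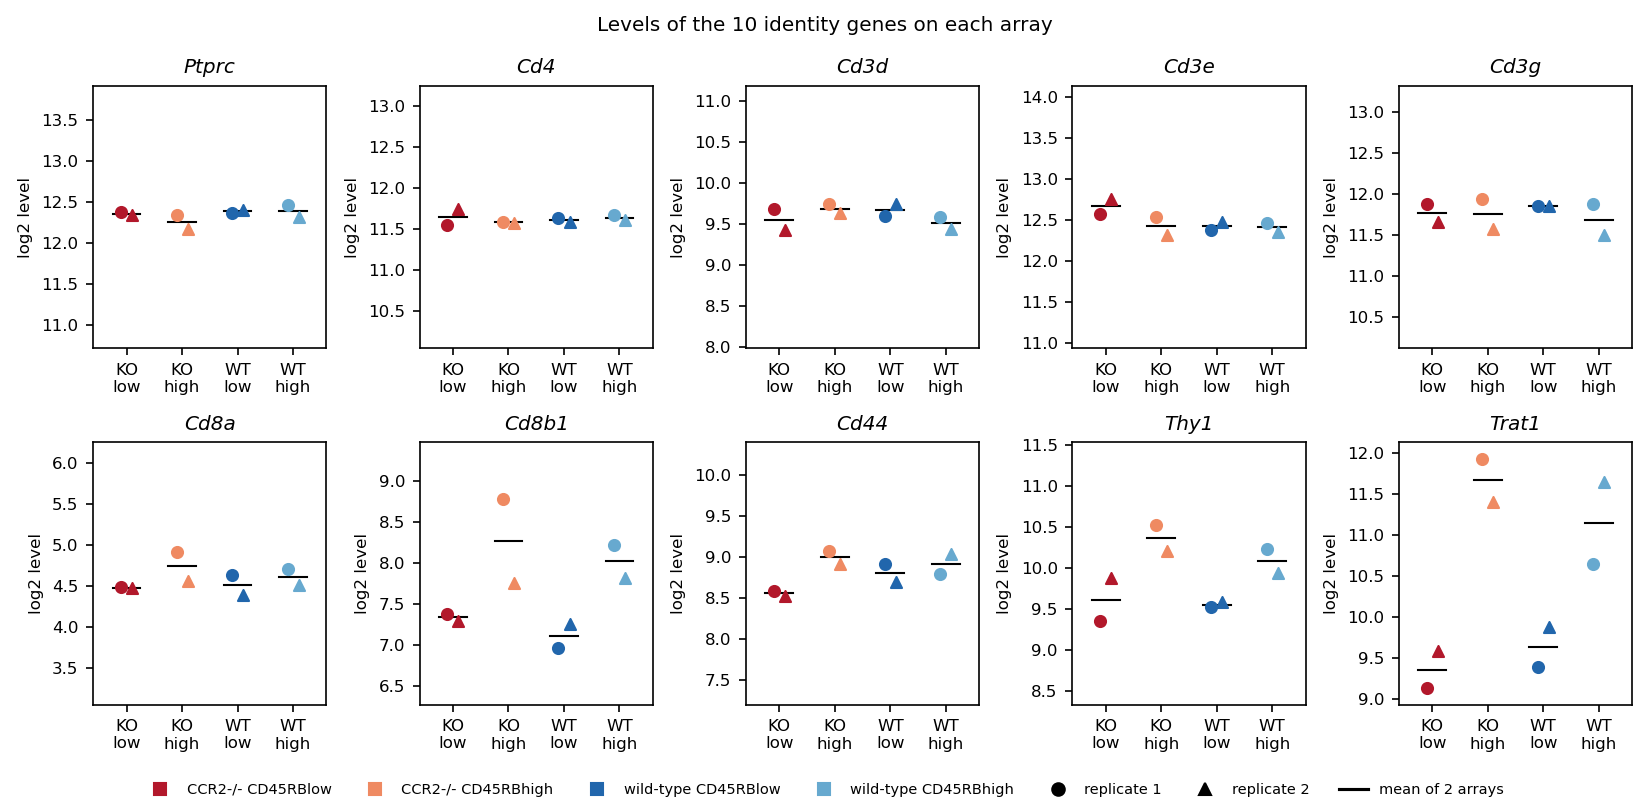
Log2 level of each of the 10 genes (vertical axis, with the same height in log2 units in every panel) on each array of the 4 groups (horizontal axis, KO for CCR2-/- and WT for wild type, low and high for CD45RBlow and CD45RBhigh). Circles are replicate 1, triangles replicate 2 and bars the mean of 2 arrays. Trat1, Cd8b1 and Thy1 sit lower in both CD45RBlow groups, while Ptprc and Cd4 span 0.30 and 0.20 log2 units over all 8 arrays.

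Arrays within a group correlated across all clusters at r = 0.984 to 0.994, with a median log2 value per array of 4.92 to 5.05. Levels below are log2 values as the authors deposited them. A gene's position among all clusters of its array is given as a percentile, which depends on the probes as well as on the transcript, so levels of different genes are not set against each other. In a bulk sample, fewer cells that express a gene and less RNA per cell cannot be told apart.

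The promoter windows of the gene that changed and of a pair that did not pass show the sequence around their transcription starts. They were taken from RefSeq on GRCm38.p6, run 5′ to 3′ on the gene's own strand and hold 250 bases before and 50 bases after a start. They cover chr16:48772013-48772312 for Trat1 (minus strand), chr1:138175256-138175555 for Ptprc (minus strand, 1 of its 2 overlapping windows) and chr9:45009562-45009861 for Cd3e (minus strand). Capitals mark the letters CAGGAA, a core that ETS family factors can bind, which appear as TTCCTG where they lie on the other strand.
Trat1: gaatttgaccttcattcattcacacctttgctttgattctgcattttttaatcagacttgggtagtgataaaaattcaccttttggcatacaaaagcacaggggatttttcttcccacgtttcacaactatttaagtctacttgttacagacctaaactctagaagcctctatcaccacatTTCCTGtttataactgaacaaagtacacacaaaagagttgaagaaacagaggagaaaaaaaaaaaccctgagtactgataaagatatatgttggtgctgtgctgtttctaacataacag
Ptprc: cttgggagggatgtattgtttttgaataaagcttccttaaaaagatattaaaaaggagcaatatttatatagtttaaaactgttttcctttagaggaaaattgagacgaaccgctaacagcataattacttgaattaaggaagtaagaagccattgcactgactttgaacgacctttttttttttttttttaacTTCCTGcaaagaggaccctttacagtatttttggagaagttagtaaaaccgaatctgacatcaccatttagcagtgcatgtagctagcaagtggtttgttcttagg
Cd3e: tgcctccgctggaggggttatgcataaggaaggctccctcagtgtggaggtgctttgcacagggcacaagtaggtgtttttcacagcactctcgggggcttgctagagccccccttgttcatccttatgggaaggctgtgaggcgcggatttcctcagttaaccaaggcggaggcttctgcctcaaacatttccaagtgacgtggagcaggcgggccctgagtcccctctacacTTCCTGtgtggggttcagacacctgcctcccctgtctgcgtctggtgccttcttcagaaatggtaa
Each of these windows held 1 such match. The Trat1 window also held TGTGGT, a core of RUNX factors, on the other strand from base 175 of the window, just before the ETS letters at base 182. It held TATAAA, the letters of a TATA box, on the other strand from base 188. The Ptprc window shown also held TATAAA on the other strand, from base 64. The Ptprc and Cd3e windows shown held no TGTGGT on either strand. Windows were found for 7 of the 10 genes, and not for Cd4, Cd8b1 and Thy1. A gene was counted if any of its windows held a match, while the shares of mouse windows are per window. Ptprc has 2 windows and was counted for AGATAA only through the 1 not shown. CAGGAA was present for 5 of the 7 and in 30.6% of the 32851 mouse windows, TGTGGT for 1 of the 7 and in 16.8%, and TATAAA for 2 of the 7 and in 13.6%. The GATA factor core AGATAA was present for 3 of the 7 and in 11.2%, and the E-box letters CANNTG for 5 of the 7 and in 72.3%. A match describes the letters only, and the motifs were chosen after the sequences had been seen.

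Ptprc stood among the brightest clusters of every array, at the 99.2nd to the 99.5th percentile. Its level was 12.38 and 12.34 in CCR2-/- CD45RBlow cells and 12.34 and 12.17 in CCR2-/- CD45RBhigh cells. It was 12.37 and 12.41 in wild-type CD45RBlow cells and 12.47 and 12.32 in wild-type CD45RBhigh cells. The CD45RBlow and CD45RBhigh arrays overlapped. The difference between subsets was 0.05 on the log2 scale, with an interval from -0.14 to 0.24 (limma adjusted p = 0.830).

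Genes that act on CD45 splicing were looked at beside it. Of 17 listed genes 14 were tested and 3 had no cluster with a single symbol. Between the subsets 0 of the 14 passed, against 3.03% of all tested genes. Hnrnpll, which encodes an RNA-binding protein that favours skipping of the variable CD45 exons in mice, had the smallest p of the list. It was 11.27 and 10.90 in CCR2-/- CD45RBlow cells, 10.91 and 10.57 in CCR2-/- CD45RBhigh cells, 11.44 and 11.31 in wild-type CD45RBlow cells and 10.78 and 10.97 in wild-type CD45RBhigh cells. It was higher in the CD45RBlow array of all 4 pairs of equal replicate number, while the subsets overlapped across pairs. The share of all tested genes higher in all 4 pairs was not counted. The log2 difference was 0.42 with an interval from 0.13 to 0.71 and did not pass (limma adjusted p = 0.126). Srsf2, a splicing factor of the SR family, differed by 0.26 (limma adjusted p = 0.188), and the median difference was 0.05 over the 14 genes on the array, against 0.00 over all 22180 genes.

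Cd4 lay at the 98.2nd to the 98.7th percentile of every array, as a defining marker of the gated cells. Its level was 11.54 and 11.74 in CCR2-/- CD45RBlow cells, 11.58 and 11.57 in CCR2-/- CD45RBhigh cells, 11.63 and 11.58 in wild-type CD45RBlow cells and 11.66 and 11.60 in wild-type CD45RBhigh cells. No group stood apart, and the 8 arrays spanned 0.20 log2 units, the narrowest span of the 10 genes. The subset difference was 0.02 (interval -0.16 to 0.21, limma adjusted p = 0.932).

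The CD8 genes were both lower in the CD45RBlow array of all 4 pairs of equal replicate number, and neither passed. The share of all tested genes with this pattern was not counted, and for Cd8a the subsets overlapped. Cd8a, the chain that every CD8 dimer needs, was dim on all arrays, at the 33.6th to the 49.4th percentile, and reached the 40th percentile of clusters on 3 of the 8 arrays. Its level was 4.48 and 4.47 in CCR2-/- CD45RBlow cells, 4.91 and 4.56 in CCR2-/- CD45RBhigh cells, 4.63 and 4.39 in wild-type CD45RBlow cells and 4.70 and 4.51 in wild-type CD45RBhigh cells. Its gap was -0.44 and -0.09 in the CCR2-/- pairs and -0.07 and -0.12 in the wild-type pairs. The subset difference was -0.18 (interval -0.44 to 0.08, limma adjusted p = 0.463). With no CD8+ sample measured, the response of this cluster to CD8+ cells could not be checked.

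Cd8b1, the beta chain of the CD8 heterodimer, was well over the array medians in all groups, at the 70.5th to the 84.3rd percentile. Its level was 7.38 and 7.30 in CCR2-/- CD45RBlow cells, 8.78 and 7.76 in CCR2-/- CD45RBhigh cells, 6.97 and 7.26 in wild-type CD45RBlow cells and 8.22 and 7.82 in wild-type CD45RBhigh cells. All 4 CD45RBlow arrays, at 6.97 to 7.38, lay below all 4 CD45RBhigh arrays, at 7.76 to 8.78. The log2 difference of -0.92 (standard error 0.22, interval -1.43 to -0.40) corresponds to 1.89 times more transcript in CD45RBhigh cells. It did not pass (limma adjusted p = 0.0776) and passed with the replicate number as a block (limma adjusted p = 0.0467) or without CCR2-/- CD45RBhigh replicate 2 (-1.17, limma adjusted p = 0.0118). The gap depended on the replicate number. It was -1.40 in CCR2-/- replicate 1 and -1.26 in wild-type replicate 1, against -0.45 in CCR2-/- replicate 2 and -0.56 in wild-type replicate 2.

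Markers of other cells were read beside these gaps. The mean level of 10 B cell markers on the array was 4.90 to 4.97 over the CD45RBlow arrays and 5.08 to 5.96 over the CD45RBhigh arrays, highest in CCR2-/- CD45RBhigh replicate 1 (5.96) and wild-type CD45RBhigh replicate 1 (5.63). Its gap between subsets was -1.06 in CCR2-/- replicate 1 and -0.67 in wild-type replicate 1, against -0.22 in CCR2-/- replicate 2 and -0.10 in wild-type replicate 2. The Cd8b1, Thy1 and mean B cell marker gaps were thus all larger in replicate 1 of both genotypes. This order was not particular to them, and the share of all genes that have it was not counted. Grap2, a T cell adaptor gene, had gaps of -1.19 and -0.42 in the CCR2-/- pairs and -1.15 and -0.38 in the wild-type pairs. Of the transmembrane adaptor genes, Pag1 and Lax1 had the order too. The gaps for Pag1 were -1.06 and -0.55 in the CCR2-/- pairs and -0.71 and -0.52 in the wild-type pairs. Trat1, Sit1, Lat and Lat2 did not have the order. Of the single B cell markers, Cd79a, Cd79b, Ms4a1, Fcer2a, Blnk and Cd22 fell in both replicate 1 pairs, and by more than in replicate 2. For Fcer2a the gaps were -2.88 and -1.07 in the CCR2-/- pairs and -2.05 and -0.43 in the wild-type pairs. Ighm, Ebf1, Cr2 and Pax5 did not have this order. The gaps for Ighm were -1.09 and -1.18 in the CCR2-/- pairs and -0.78 and -1.07 in the wild-type pairs. Ebf1 was higher in CD45RBlow cells in 3 of the 4 pairs. Of these markers 1 of 8 tested was called, against 3.03% of all tested genes. It was Ighm, which fell (log2 difference -1.03, limma adjusted p = 0.0128). With the block 2 were called (Ighm and Fcer2a), against 5.61% of all tested genes. Cr2 and Pax5 were below the 40th percentile on all arrays. Of 7 cytotoxic CD8 T cell markers 0 passed, against 3.03% of all tested genes. Their mean was 6.70 to 6.79 over the CD45RBlow arrays and 6.82 to 7.32 over the CD45RBhigh arrays. Its gap was -0.08 and -0.55 in the CCR2-/- pairs and -0.56 and -0.32 in the wild-type pairs, which is not the order of the Cd8b1 gaps. Members of this list ran in both directions. The chemokine gene Ccl5 differed by -2.53 (limma adjusted p = 0.0720, and 0.0174 with the block), while the granzyme gene Gzmk differed by 0.34 (limma adjusted p = 0.0582, and 0.0445 with the block) and Nkg7 by 0.27 (limma adjusted p = 0.604). The mean of 6 NK cell markers was 4.50 to 4.63 over the CD45RBlow arrays and 4.60 to 4.81 over the CD45RBhigh arrays, with Klrb1c and Ncr1 below the 40th percentile on all arrays. The 6 dendritic cell markers averaged 4.81 to 4.88 over the CD45RBlow arrays and 4.93 to 5.16 over the CD45RBhigh arrays. The 7 macrophage and monocyte markers averaged 4.55 to 4.62 over the CD45RBlow arrays and 4.57 to 4.85 over the CD45RBhigh arrays. Of the dendritic list Itgax, Flt3, Siglech and Xcr1 were below the 40th percentile on all arrays, and of the macrophage list Csf1r, Lyz2, Adgre1, Cd14 and Itgam were. The brighter members of the dendritic and macrophage lists (Zbtb46, Bst2, Cd68 and Fcgr3) were lower in CD45RBlow cells in all 4 pairs without passing. On the NK list Klrk1, Eomes and Klrd1 were too. Gzma was not, with gaps of 0.49 and 0.32 in the CCR2-/- pairs and -0.29 and 0.06 in the wild-type pairs. How many of all tested genes were lower in all 4 pairs was not counted. Cd68, a lysosomal protein gene of the macrophage list, differed by -0.53 (limma adjusted p = 0.292, and 0.0244 with the block). Its gaps were -1.14 and -0.81 in the CCR2-/- pairs, against -0.08 and -0.10 in the wild-type pairs. Bst2, of the dendritic list, differed by -0.80 (limma adjusted p = 0.104). A pair of gamma-delta T and NKT cell markers averaged 5.03 to 5.15 over the CD45RBlow arrays and 4.65 to 4.91 over the CD45RBhigh arrays. Of these 0 of 2 passed, and 1 rose with the block, against 5.61% of all tested genes called with it. The 5 neutrophil markers averaged 4.34 to 4.60 over the CD45RBlow arrays and 4.30 to 4.46 over the CD45RBhigh arrays. Of these S100a8, Retnlg and Mmp8 were below the 40th percentile on all arrays. The part of other cells in the gaps of Cd8b1, Thy1 and Trat1 was not tested.

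**Figure D2:**
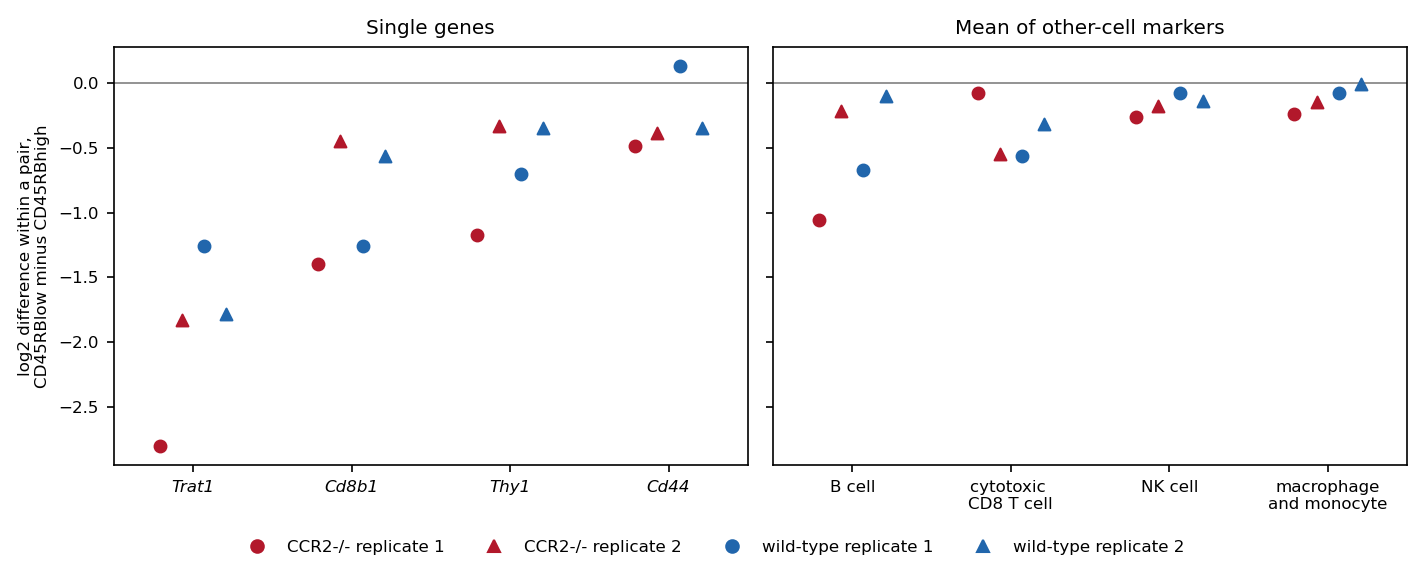
Log2 difference between the CD45RBlow and the CD45RBhigh array of equal genotype and replicate number (vertical axis) for 4 of the genes (left) and for the mean of 4 lists of markers of other cells (right). Each point is 1 pair of arrays. The Cd8b1, Thy1 and B cell marker gaps are larger in replicate 1 (circles) than in replicate 2 (triangles) of both genotypes, while Trat1 lies between -2.80 and -1.26 with no such order.

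The CD3 genes did not pass in any comparison. Cd3e, the epsilon chain that pairs with both other CD3 chains, was 12.58 and 12.76 in CCR2-/- CD45RBlow cells, 12.54 and 12.32 in CCR2-/- CD45RBhigh cells, 12.38 and 12.48 in wild-type CD45RBlow cells and 12.47 and 12.36 in wild-type CD45RBhigh cells. The subset difference was 0.13 (interval -0.08 to 0.34, limma adjusted p = 0.530). Cd3g, the gamma chain, spanned 11.50 to 11.94 over the 8 arrays, with a difference of 0.09 (interval -0.21 to 0.38, limma adjusted p = 0.801). Cd3d, the delta chain, spanned 9.43 to 9.74, with a difference of 0.01 (interval -0.21 to 0.23, limma adjusted p = 0.978). The subsets overlapped for all 3 chains. Among 25 listed genes of T cell receptor signalling, 21 were tested and 0 passed, against 3.03% of all tested genes. Their median difference was 0.08. Grap2, the adaptor GADS that couples LAT to SLP-76, had the smallest p (-0.79, limma adjusted p = 0.0621, and 0.0492 with the replicate block), followed by the Src family kinase gene Fyn (-0.24, limma adjusted p = 0.140).

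Trat1 was the member that differed most. Its level was 9.13 and 9.58 in CCR2-/- CD45RBlow cells and 11.93 and 11.40 in CCR2-/- CD45RBhigh cells. It was 9.39 and 9.88 in wild-type CD45RBlow cells and 10.64 and 11.65 in wild-type CD45RBhigh cells. The CD45RBlow arrays all lay under the CD45RBhigh arrays, with a free interval from 9.88 to 10.64, and the gene stood at the 86.9th percentile of clusters on its lowest array and at the 98.9th on its highest. Within CCR2-/- cells the difference was -2.31 (interval -3.15 to -1.48, limma adjusted p = 0.0619, and 0.0262 with the replicate block). Within wild type it was -1.52 (interval -2.35 to -0.68, limma adjusted p = 0.232, and 0.108 with the block), with the broadest spread between replicates in wild-type CD45RBhigh cells (11.15 ± 0.71, SD, n = 2). The interaction, the subset difference in CCR2-/- minus that in wild type, was -0.80 with an interval from -1.98 to 0.39 and did not pass (limma adjusted p = 1). The averaged call was lost without wild-type CD45RBlow replicate 1 (-1.79, limma adjusted p = 0.0800) or CCR2-/- CD45RBlow replicate 1 (-1.80, limma adjusted p = 0.0765), and the limma adjusted p ran from 0.00696 to 0.0800 over all alternatives. Within CCR2-/- cells it passed without either wild-type CD45RBhigh array (limma adjusted p = 0.0348 for both).

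Other transmembrane adaptors of lymphocytes, which like TRIM carry tyrosines on a cytoplasmic tail, were listed with it. Of 5 tested genes 1 fell and 0 rose between the subsets, against 1.93% and 1.1% of all tested genes. Sit1, which binds the phosphatase SHP-2, was 8.59 and 8.45 in CCR2-/- CD45RBlow cells, 9.29 and 9.29 in CCR2-/- CD45RBhigh cells, 8.36 and 8.76 in wild-type CD45RBlow cells and 8.90 and 8.90 in wild-type CD45RBhigh cells. The subsets did not overlap. Its log2 difference was -0.56 (interval -0.80 to -0.32, limma adjusted p = 0.0382). The Sit1 call was lost without any single array other than wild-type CD45RBlow replicate 2 (limma adjusted p from 0.0553 to 0.148), and with array weights (limma adjusted p = 0.0626). Pag1, which recruits the inhibitory kinase CSK to the membrane, differed by -0.71 (interval -1.07 to -0.35, limma adjusted p = 0.0606, and 0.0399 with the replicate block). Lax1 differed by -0.36 (limma adjusted p = 0.245). Lat, the central scaffold of T cell receptor signalling, differed by 0.03 (interval -0.15 to 0.21, limma adjusted p = 0.898), and Lat2, its relative, by 0.14 (limma adjusted p = 0.466). The median over the 5 genes was -0.36.

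**Figure D3:**
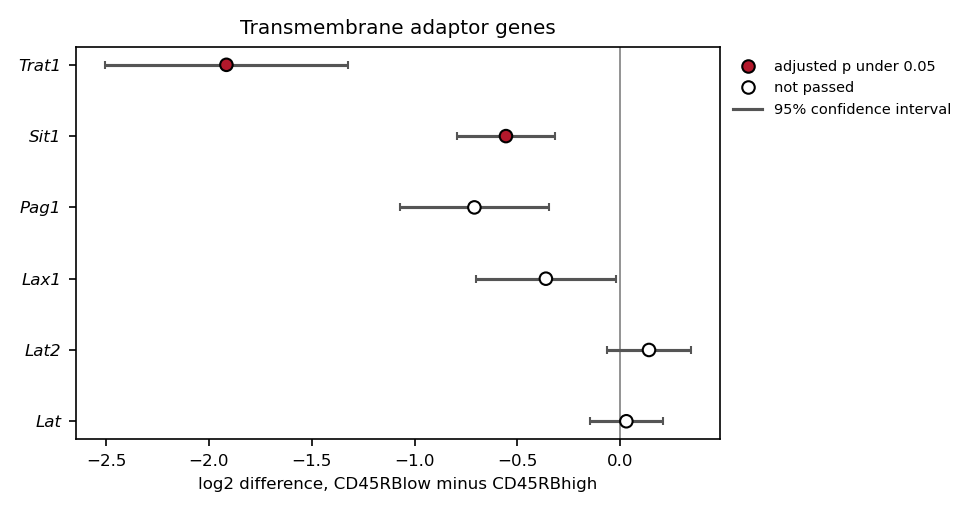
Log2 difference between CD45RBlow and CD45RBhigh cells, averaged over the genotypes (horizontal axis), for Trat1 and the 5 other transmembrane adaptor genes. Points are estimates over 8 arrays, bars 95% confidence intervals and filled points passed limma at an adjusted p under 0.05. Trat1 (-1.92) and Sit1 (-0.56) passed, and the intervals of Lat and Lat2 hold 0.

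Thy1, the small glycoprotein CD90 used as a marker of mouse T cells, was 9.35 and 9.88 in CCR2-/- CD45RBlow cells and 10.52 and 10.21 in CCR2-/- CD45RBhigh cells. It was 9.53 and 9.58 in wild-type CD45RBlow cells and 10.23 and 9.94 in wild-type CD45RBhigh cells. The CD45RBlow arrays, up to 9.88, lay just under the CD45RBhigh arrays, which began at 9.94. The log2 difference was -0.64 (standard error 0.14, interval -0.98 to -0.30), or 1.56 times more transcript in CD45RBhigh cells, and did not pass (limma adjusted p = 0.0639, and 0.0587 with the block). It passed without CCR2-/- CD45RBlow replicate 2 (-0.78, limma adjusted p = 0.0470). The gap was -1.17 in CCR2-/- replicate 1 and -0.70 in wild-type replicate 1, against -0.33 in CCR2-/- replicate 2 and -0.35 in wild-type replicate 2.

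Cd44, the hyaluronan receptor whose surface protein is high on memory T cells and after activation, was 8.58 and 8.53 in CCR2-/- CD45RBlow cells, 9.07 and 8.92 in CCR2-/- CD45RBhigh cells, 8.92 and 8.69 in wild-type CD45RBlow cells and 8.79 and 9.04 in wild-type CD45RBhigh cells. The subsets overlapped in wild type and not in CCR2-/- cells. The log2 difference was -0.28 (interval -0.50 to -0.05, limma adjusted p = 0.189), so its estimate lay on the side of CD45RBhigh cells. Other surface markers that part naive from memory T cells were read from a list of 19, of which 17 were tested. Of these 1 rose and 1 fell, against 1.1% and 1.93% of all tested genes. With the replicate block 1 rose and 2 fell, against 5.61% of all tested genes called in either direction. The integrin gene Itga4 differed by -0.71 (limma adjusted p = 0.295, and 0.00573 with the block). Cd24a, the heat-stable antigen, rose by 0.80 (limma adjusted p = 0.0147), with 9.16 and 8.98 in CCR2-/- CD45RBlow cells, 7.88 and 8.00 in CCR2-/- CD45RBhigh cells, 8.34 and 8.26 in wild-type CD45RBlow cells and 8.01 and 7.66 in wild-type CD45RBhigh cells. Ccr7, the lymph node homing receptor of naive cells, fell by 0.94 on the log2 scale (limma adjusted p = 0.0303). The Cd24a call was lost without wild-type CD45RBlow replicate 1, CCR2-/- CD45RBlow replicate 1 or wild-type CD45RBlow replicate 2 (limma adjusted p = 0.0862, 0.0711 and 0.0556). The Ccr7 call was lost without any single array other than the CCR2-/- CD45RBhigh arrays (limma adjusted p from 0.0513 to 0.148). Il2ra, the gene of the CD25 protein that was absent by the gate, differed by 0.10 (interval -0.09 to 0.30, limma adjusted p = 0.591). The median over the 17 genes was 0.04.

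Regulators of the choice between CD4 and CD8 lineages were listed for the coreceptor genes. Of 14 tested, 1 rose and 0 fell, against 1.1% and 1.93% of all tested genes. With the replicate block 2 rose and 1 fell, against 5.61% of all tested genes called in either direction. Gata3, which acts upstream of the CD4 lineage factor ThPOK, rose by 0.73 (limma adjusted p = 0.0244). Its call was lost with the mean of all its clusters (0.50, limma adjusted p = 0.0542) and without any single array other than the CCR2-/- CD45RBhigh arrays (limma adjusted p from 0.0624 to 0.108). Zbtb7b, the gene of ThPOK, differed by -0.13 (interval -0.32 to 0.05), and Runx3, a factor of the CD8 lineage, by -0.28 (interval -0.61 to 0.05), and neither passed (limma adjusted p = 0.439 for Zbtb7b and 0.352 for Runx3).

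Over all 10 genes, 3 had CD45RBlow arrays that lay entirely below the CD45RBhigh arrays and 0 lay entirely above, against 8.12% of tested genes below and 6.12% above. Within CCR2-/- cells 0 of 10 passed and 1 with the replicate block (Trat1), against 0.333% of all tested genes and 1.45% with the block. There 4 of the 10 had an unadjusted p under 0.05, as had 1665 of the 13508 tested genes. Within wild type 0 of 10 passed with or without the block, against 0.0888% of all tested genes and 0.77% with the block. There 3 of the 10 had an unadjusted p under 0.05, as had 1245 of the 13508 tested genes. The median subset difference of the 10 genes was -0.08, with a range from -1.92 to 0.13.

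CCR2-/- cells were then set against wild-type cells. Averaged over the subsets, differences ran from -0.08 for Ptprc to 0.24 for Cd8b1, limma called 0 of 10 with or without the replicate block, and 0 of 10 had an unadjusted p under 0.05. Limma called 0% of all tested genes here, with 521 of 13508 at an unadjusted p under 0.05. The interval for Ptprc was -0.27 to 0.11 and that for Cd4 was -0.19 to 0.18, while that for Trat1 was wider, from -0.47 to 0.71. In no gene of the 10 did the 4 CCR2-/- arrays part from the 4 wild-type arrays, against 1.67% of all tested genes. Within CD45RBlow cells the differences ran from -0.28 for Trat1 to 0.24 for Cd3e, and within CD45RBhigh cells from -0.14 for Ptprc to 0.52 for Trat1. Limma called 0 of 10 in both, 0 of 10 had an unadjusted p under 0.05, and 0% of all tested genes were called. The interaction was likewise called for 0 of 10, with 0 of 10 at an unadjusted p under 0.05 and 0% of all tested genes called.

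**Figure D4:**
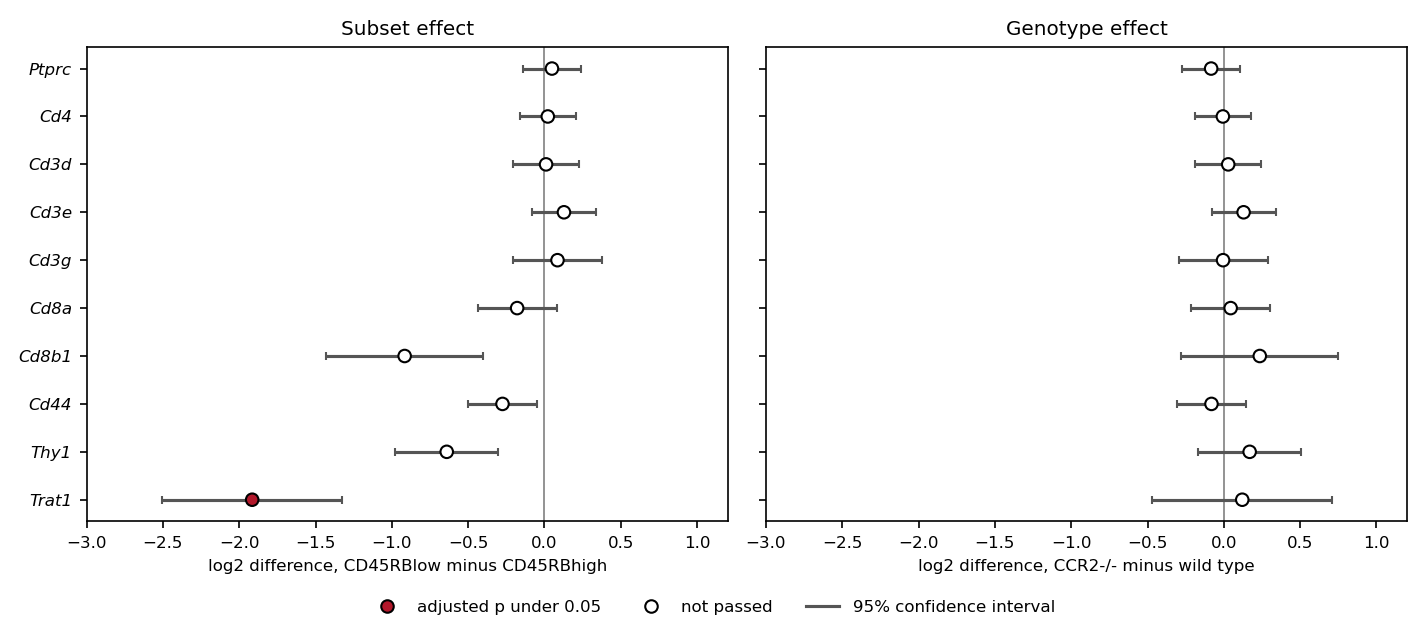
Log2 difference of each of the 10 genes (horizontal axis) between CD45RBlow and CD45RBhigh cells (left) and between CCR2-/- and wild-type cells (right), each averaged over the other factor. Points are estimates over 8 arrays, bars 95% confidence intervals, and the filled point passed limma at an adjusted p under 0.05. Only Trat1 between the subsets is filled, and every interval of the genotype effect holds 0.

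Genes with a pattern like that of a member were sought for the 3 members whose arrays spanned at least 1 log2 unit, namely Trat1 (2.80), Cd8b1 (1.81) and Thy1 (1.17). The likeness is Pearson's r over the 8 arrays, which share the subset split and the replicate numbers, and the highest of 13508 values are given as a description. Nearest to Trat1 were Phf10 (r = 0.985), Ctss (0.983), Serpinc1 (0.982), Pdlim5 (0.981) and Stambpl1 (0.975). Nearest to Cd8b1 were Sil1 (0.990), Mpp1 (0.988), 4930581F22Rik (0.986), Rhoh (0.983) and Klhl5 (0.982). Nearest to Thy1 were Lrrc51 (0.979), Ubr2 (0.977), Rpl34-ps2 (0.976), St6gal1 (0.975) and Pold4 (0.974). Among the members, Trat1 had r = 0.848 with Thy1 and 0.810 with Cd8b1, Thy1 had 0.875 with Cd8b1, Cd8a had 0.780 with Cd8b1, and Ptprc had -0.413 with Trat1.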

How the data were processed

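Transcript levels were measured on 8 single-colour arrays, 2 for each of 4 groups read from the sample titles. Samples whose title has no number were taken as replicate 1. Log2 values for 41034 transcript clusters were deposited. Per the submitters' processing notes the authors used the tools RMA and Partek (versions not given in the sources used here). Because RMA equalises the arrays' distributions, shifts common to most genes are removed. The number of arrays limits the precision, with a median standard error of 0.103 for an averaged effect.

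Gene names came from the platform annotation, and the brightest cluster with a single symbol stood for a gene. Genes at or above the 40th percentile of an array's clusters on at least 2 arrays were tested (13508). The fit, limma 3.58.1 under R 4.3.3, had 1 mean per group (4 residual and 3.36 prior degrees of freedom). P-values are two-sided and adjusted by Benjamini-Hochberg over all genes tested, with a threshold of 0.05. Subset effects are CD45RBlow minus CD45RBhigh and genotype effects CCR2-/- minus wild type. The test was also run on simulated arrays for the averaged subset effect with 13508 genes. It recovered 92 of 100 genes given a change of 1 log2 unit and 98 of 100 given a change of 2. There were 14 false calls among 13308 unchanged genes. The simulated arrays varied independently, without the replicate differences shared between groups that are described below. The share recovered on the real arrays is therefore not known.

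The difference of replicate 2 from replicate 1 correlated across genes between all groups (6 values from 0.109 to 0.531), which meets the criterion for pairing by replicate number (all above 0.1). The calls in the text come from the fit without the block. Where the block changes the call, the blocked value or count stands beside the result. The members and lists were chosen with earlier results of these data known. All 10 members are named. Each list names up to 4 passing genes, or the 2 with the smallest p where none passed. Il2ra, Itga4, Pag1, Lax1, Lat, Lat2, Zbtb7b, Runx3, Ighm, Ebf1, Ccl5, Gzmk, Nkg7, Cd68 and Bst2 were added after their values were seen. So were the B cell markers Cd79a, Cd79b, Ms4a1, Fcer2a, Blnk and Cd22, the NK cell markers Klrk1, Eomes, Klrd1 and Gzma, and Zbtb46 and Fcgr3. The alternatives were a replicate block, no filter, the mean of a gene's clusters, quantile normalization on top, array weights and leaving out each array.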

Additional observations from a re-analysis of the deposited data

How the results depend on the processing

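The 10 genes in 7 comparisons gave 910 values under the alternatives, of which 901 kept their direction or stayed uncalled on the same side of the threshold, 2 lost the call, 7 gained one and 0 reversed. With the replicate block, which uses the pairing of replicate numbers, 2 of the 10 genes were called between the subsets (Trat1 and Cd8b1, against 1 without it) and 1 within CCR2-/- cells (against 0). Leaving out single arrays gave 0 to 2 called genes for the averaged subset effect, 0 to 1 within CCR2-/- cells and 0 in the other comparisons. Over all genes, the averaged subset effect called 758 with the block, against 409, and 39 to 524 without single arrays. Within CCR2-/- cells it called 196 with the block and 7 with array weights, against 45, and 1 to 84 without single arrays. Within wild type it called 104 with the block and 116 with array weights, against 12, and 1 to 54 without single arrays. The genotype effects and the interaction called 0 genes under all alternatives. Without a filter, the averaged subset effect of Trat1 kept its call (limma adjusted p = 0.0220). The causes of these shifts were not tested. Leaving out an array also leaves fewer arrays, and the lone array of its group is then assumed to vary like the others. Groups of 2 arrays limit the precision, and Cd8a was near the dim end of the array, so a small difference in it was not detectable.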

Other observations

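Some identity genes also had different levels on the replicate 1 and replicate 2 arrays, differences that were not tested. Cd3g was lower in replicate 2 by 0.21 in CCR2-/- CD45RBlow cells and by 0.37 in both CD45RBhigh groups on the log2 scale, and did not differ at 2 decimals in wild-type CD45RBlow cells (0.00). Cd8a was lower in replicate 2 of all 4 groups, with a mean difference of -0.20. Trat1 ran the other way in 3 of 4 groups, with a mean difference of 0.36. Beside the Xist difference, the Y-linked gene Kdm5d was 8.83 to 9.13 on the replicate 1 arrays and 7.58 to 7.78 on the replicate 2 arrays. Both numbers were present once in every group.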
